A study of Caenorhabditis elegans with 2 samples.

Results

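The 9 genes described here are heat shock chaperone genes of Caenorhabditis elegans and their regulator, out of 19973 protein-coding genes annotated on the nuclear chromosomes. They are hsp-1, hsp-70, hsp-3, hsp-4, hsp-6, hsp-60, hsp-16.1, hsp-16.2 and hsf-1. They were selected on their names and functions with measured values of these peak lists already known, so their regions are given as a description and without a test. For each gene, every region was taken whose summit, the base of highest signal, lay between 1 kb upstream of the gene start and the gene end.

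The data came from ChIP-seq, the sequencing of DNA that is precipitated together with a chromatin protein. The protein was TRA-4, a transcription factor with zinc fingers and a role in sex determination. The worms were of strain OP640, with the allele unc-119(tm4063) on chromosome III and the transgene insertion wgIs640, which carries TRA-4 fused at its C-terminus to GFP and FLAG. Early embryos of mixed sex were obtained by bleaching, the chromatin was sonicated, and TRA-4 was precipitated through GFP. There were 2 biological replicates of this 1 group and no second condition. Both replicates carry the tagged transgene and the unc-119 allele, and the labels name neither the promoter of the transgene nor the state of the endogenous tra-4 gene. The embryos were precipitated whole, so a region can come from any cell type of the embryo.

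Heat shock proteins are chaperones that keep other proteins folded. HSF-1, the heat shock transcription factor, binds heat shock elements, which are inverted repeats of a GAA unit, and raises chaperone transcription when proteins misfold in the cytosol. Separate stress responses serve the endoplasmic reticulum, where the factor XBP-1 acts on genes such as hsp-4, and the mitochondrion, where hsp-6 and hsp-60 are the usual reporters.

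Among the 9 genes, hsp-1, hsp-3 and hsp-60 had regions in the final set of 394, which the authors kept after the irreproducible discovery rate (IDR) step, a comparison of the ranks of regions in both replicates. The strongest region lay upstream of hsp-1, the constitutive cytosolic Hsp70 gene, at rank 105 of 394. The region upstream of hsp-60 was at rank 165 and the one at hsp-3 at rank 237. The genes hsp-70, hsp-16.1, hsp-16.2, hsp-4, hsp-6 and hsf-1 had none in the final set. This made 3 of 9 genes, beside 1.90% of all protein-coding genes by the same rule. In the relaxed list called on the pooled replicates, 6 of 9 genes had a region, beside 28.8% of all protein-coding genes. In the relaxed lists of replicate 1 and replicate 2 the numbers were 5 and 7 of 9, beside 46.3% and 37.3%. Nothing is read from these shares, since the genes were chosen with the lists known.

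The sequences under the regions are shown first, because the members differ in whether a region coincides with a heat shock element. They are stretches of at most 300 bases on the strand of the named gene, 5′ to 3′, from the RefSeq genome sequence of WBcel235, the assembly also called ce11. Capitals mark GAANNTTC or TTCNNGAA, the inverted pairs of GAA units of a heat shock element, and TGACGTG, the core of an XBP-1 site, each searched on both strands. Overlapping pairs form 1 longer run of capitals. Positions are counted from the annotated gene start, with negative numbers upstream.

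The stretch that holds both summits upstream of hsp-1 (chrIV:17278556-17278855, plus strand, from -403 to -104) is intergenic.
hsp-1: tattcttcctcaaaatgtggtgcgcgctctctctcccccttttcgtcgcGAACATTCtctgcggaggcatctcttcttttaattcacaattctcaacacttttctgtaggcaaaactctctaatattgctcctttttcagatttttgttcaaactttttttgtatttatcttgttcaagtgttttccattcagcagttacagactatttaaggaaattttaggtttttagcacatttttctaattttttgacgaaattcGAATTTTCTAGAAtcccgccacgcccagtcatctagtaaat

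The 300 bases around the hsp-60 summit (chrIII:1618974-1619273, plus strand, from -768 to -469) lie between the divergent genes hsp-60 and Y22D7AL.10.
hsp-60: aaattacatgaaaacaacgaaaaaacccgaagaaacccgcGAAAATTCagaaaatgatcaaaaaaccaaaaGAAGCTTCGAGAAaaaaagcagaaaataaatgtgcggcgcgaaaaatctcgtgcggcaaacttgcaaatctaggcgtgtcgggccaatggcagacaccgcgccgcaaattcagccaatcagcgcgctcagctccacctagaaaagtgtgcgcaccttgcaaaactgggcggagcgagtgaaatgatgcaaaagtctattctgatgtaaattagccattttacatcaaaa

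The 300 bases around the hsp-6 summit (chrV:4827039-4827338, minus strand, from -578 to -279) lie between hsp-6 and the divergent gene C37H5.5.
hsp-6: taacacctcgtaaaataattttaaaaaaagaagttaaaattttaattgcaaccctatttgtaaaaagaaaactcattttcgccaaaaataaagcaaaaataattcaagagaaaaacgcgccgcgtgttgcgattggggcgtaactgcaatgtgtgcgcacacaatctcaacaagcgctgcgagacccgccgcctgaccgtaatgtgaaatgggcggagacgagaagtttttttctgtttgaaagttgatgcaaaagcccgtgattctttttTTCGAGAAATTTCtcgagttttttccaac

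The whole 220 bases between the divergent genes hsp-16.2 and hsp-16.41 (chrV:1804958-1805177, minus strand) hold the summit of the weak hsp-16.2 region.
hsp-16.2: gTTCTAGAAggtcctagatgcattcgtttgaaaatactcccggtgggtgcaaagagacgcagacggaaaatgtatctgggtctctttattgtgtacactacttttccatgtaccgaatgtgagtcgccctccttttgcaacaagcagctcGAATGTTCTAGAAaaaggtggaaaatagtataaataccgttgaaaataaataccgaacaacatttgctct

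The 300 bases before the hsp-4 start (chrII:7352646-7352945, minus strand) are given as a promoter with marked sites and no region.
hsp-4: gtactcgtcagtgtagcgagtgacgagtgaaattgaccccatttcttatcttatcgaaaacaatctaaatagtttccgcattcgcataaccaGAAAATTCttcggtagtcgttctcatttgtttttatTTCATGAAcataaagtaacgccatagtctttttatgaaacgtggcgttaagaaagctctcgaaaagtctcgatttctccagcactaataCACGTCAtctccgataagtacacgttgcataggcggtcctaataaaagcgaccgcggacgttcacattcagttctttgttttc

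For comparison, the 300 bases before the start of F44E5.5 (chrII:11759362-11759661, plus strand) are given, an Hsp70 gene outside the 9 whose region with its divergent partner F44E5.4 was in the final set.
F44E5.5: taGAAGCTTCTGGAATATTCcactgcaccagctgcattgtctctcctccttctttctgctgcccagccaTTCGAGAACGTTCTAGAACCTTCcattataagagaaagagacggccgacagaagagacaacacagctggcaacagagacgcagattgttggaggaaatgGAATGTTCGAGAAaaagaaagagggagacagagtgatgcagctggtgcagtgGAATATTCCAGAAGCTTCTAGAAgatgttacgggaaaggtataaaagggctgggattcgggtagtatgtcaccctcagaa

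The lists differ in size and in the scale of their signal value, so ranks are compared within a list. In the final set the highest signal value was 611, the median 135 and the lowest 102. The pooled list held 9660 regions, and the final set was its top 394 by signal. The last region inside had a signal of 101.6148 at rank 394 and the first outside 101.5698 at rank 395. Replicate 1 had 19062 regions and replicate 2 had 13957. At a q-value below 0.05, these numbers fell to 535 in the pooled list, 520 in replicate 1 and 541 in replicate 2, so most listed regions had a q-value above 0.05. The median width was 480 bp in the pooled list, 500 bp in replicate 1 and 470 bp in replicate 2. All 394 regions of the final set overlapped a region in both replicates.

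**Figure D1:**
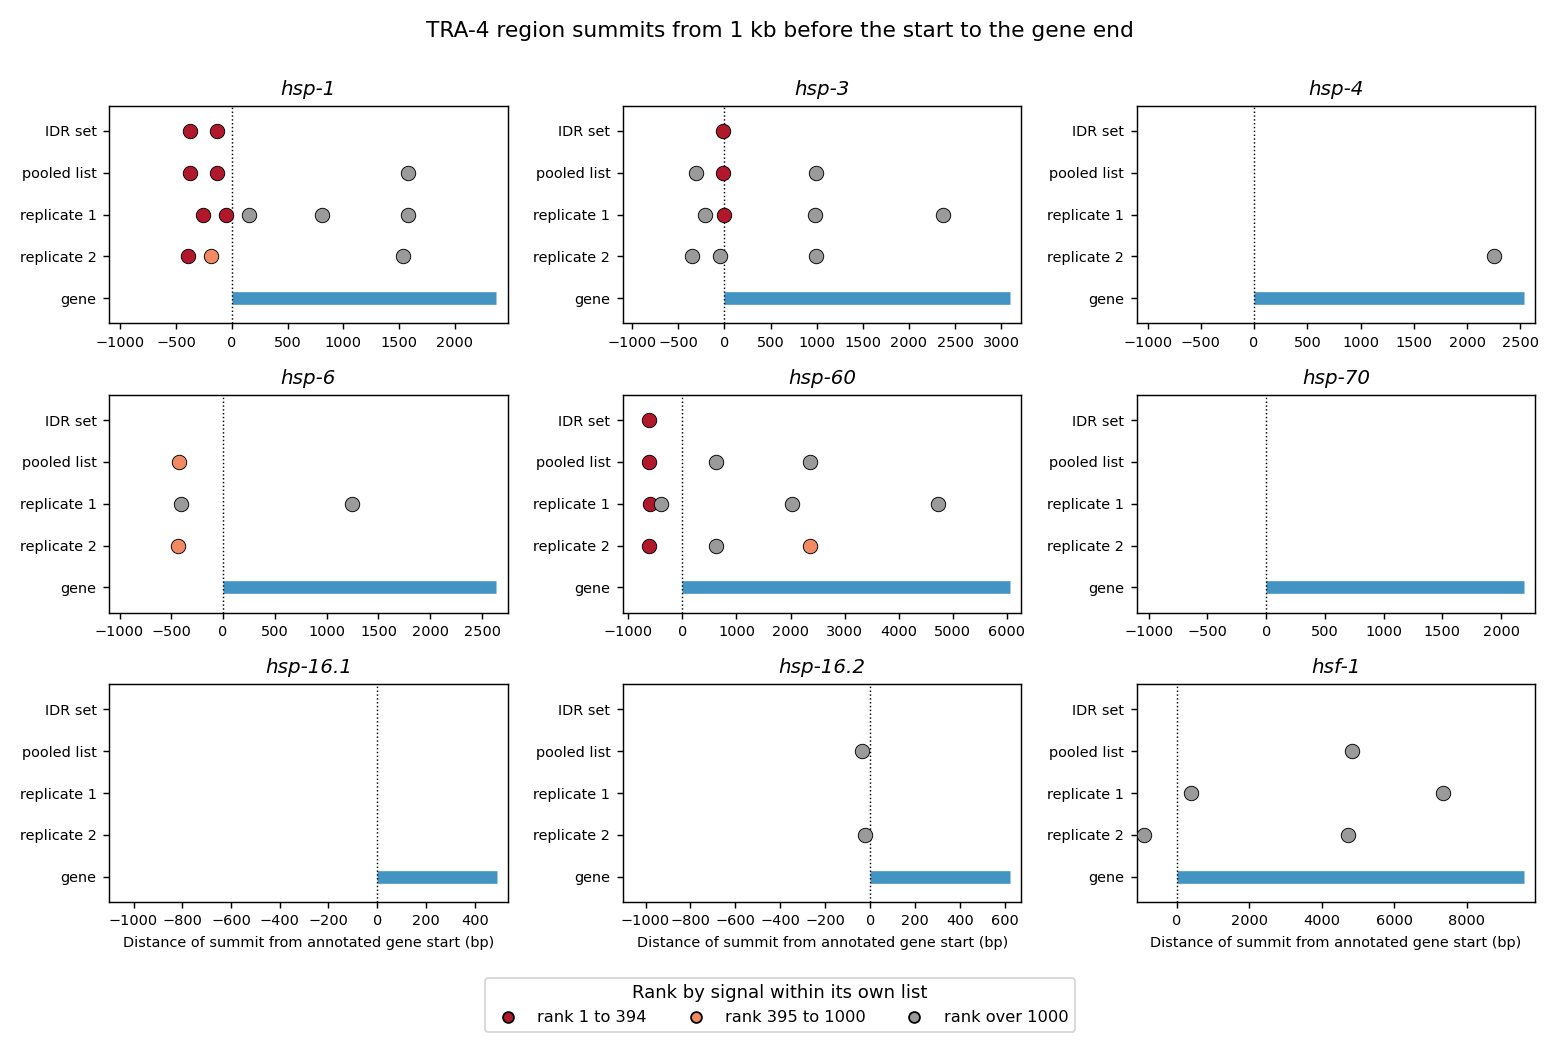
Summits of TRA-4 regions around the 9 genes, 1 panel per gene. The x axis is the distance of the summit from the annotated gene start in bp, on its own scale in each panel, each row is 1 of the 4 lists, the blue bar is the gene, and colour gives the rank within the list. Regions of rank 1 to 394 are found only upstream of or at the starts of hsp-1, hsp-3 and hsp-60, while the hsp-70 and hsp-16.1 panels are empty.

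The cytosolic Hsp70 gene hsp-1 (WBGene00002005, chrIV:17278959-17281330, plus strand), whose product folds proteins under normal growth, had 2 regions in the final set. The stronger (chrIV:17278346-17278825) had its summit at -373 with a signal of 175, a q-value of 0.00246 and rank 105. The weaker (chrIV:17278586-17279065) had its summit at -133 with a signal of 113, a q-value of 0.0122 and rank 288. Both summits are intergenic and hsp-1 is the nearest protein-coding start to each. The noncoding RNA gene F26D10.23 also starts within 500 bp of both. The next protein-coding gene upstream, clec-196, is on the same strand and lies 1210 bp away.

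Both hsp-1 regions had a counterpart in each replicate, but the summits were placed differently. Replicate 1 had summits at -258 (signal 62.6, rank 144) and -56 (signal 47.3, rank 304). Replicate 2 had them at -393 (signal 121, rank 77) and -191 (signal 53.3, rank 746). In both replicates the region farther from the start was the stronger, and the q-value of the nearer one was 0.00824 in replicate 1 and 0.123 in replicate 2. The replicate 1 summits lay 115 and 77 bp downstream of the pooled ones, and those of replicate 2 lay 20 and 58 bp upstream. The 2 pooled summits lay within 250 bp of each other, which was the case for 32 of 394 regions (8.12%) of the final set.

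Within the hsp-1 gene the regions ranked far below those upstream. In the pooled list 1 summit lay in a coding exon at 1577 bp, 490 bp from the start of the small nucleolar RNA gene F26D10.24. This summit had a signal of 49.5 and rank 6352. Summits close to it were ranked 18285 by replicate 1 and 4715 by replicate 2. Replicate 1 also had summits at 805 bp (rank 4161) and 156 bp (rank 17211).

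The heat-inducible cytosolic Hsp70 gene hsp-70 (WBGene00002026, chrI:9320325-9322519, minus strand) had no region in any of the 4 lists. It was the member with the longest upstream gap among those with a divergent neighbour, 5337 bp to cbl-1. None of the 36-base words of its interval occurred elsewhere in the genome. Of these cytosolic Hsp70 genes, hsp-1 had the strongest region of the 9 genes and hsp-70 had none.

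In the endoplasmic reticulum the 2 Hsp70 genes of the BiP type also differed. The first, hsp-3 (WBGene00002007, chrX:6089028-6092124, minus strand), had 1 region in the final set (chrX:6091895-6092374). Its summit lay 11 bp before the annotated start, with a signal of 124, a q-value of 0.00634 and rank 237. The replicates ranked it far apart. In replicate 1 the summit was at -7 with a signal of 75.0007, a q-value of 0.00209 and rank 90. In replicate 2 it was at -52 with a signal of 39.8, a q-value of 0.556 and rank 2768. The hsp-3 region was thus near the top of one replicate list and not separated from background by q-value in the other.

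The weaker hsp-3 summits recurred. A summit in a coding exon near 994 bp was at rank 2569 in the pooled list, at rank 1748 in replicate 1 and at rank 9955 in replicate 2. An upstream one at -312 was at rank 5695 in the pooled list, with neighbours at -216 (rank 2019) in replicate 1 and at -347 (rank 3512) in replicate 2. Replicate 1 alone had a further summit at 2370 bp, at rank 12630. The RefSeq model of hsp-3 starts 339 bp farther downstream than the Ensembl model used here, and measured from it the strongest summit lies at -350.

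The other BiP-type gene, hsp-4 (WBGene00002008, chrII:7350112-7352645, minus strand), is the standard reporter of the unfolded protein response. It had no region in the final set, the pooled list or replicate 1. Replicate 2 had 1 summit in an intron at 2250 bp with a signal of 30.3, a q-value of 0.865 and rank 8431 of 13957. Its promoter therefore held no listed summit in either replicate.

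Among the mitochondrial chaperones, hsp-60 (WBGene00002025, chrIII:1619742-1625803, plus strand) encodes the chaperonin of the matrix. Its region in the final set (chrIII:1618884-1619363) had its summit at -618, a signal of 145, a q-value of 0.00246 and rank 165. The replicates placed this summit within 8 bp of the pooled one. It had a signal of 65.4 and rank 133 in replicate 1, and a signal of 84.9 and rank 192 in replicate 2. Of the 4 member regions in the final set, it was the one whose summit moved least between replicates.

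The summit is nearer to another gene than to hsp-60. Y22D7AL.10, which encodes a homologue of the co-chaperonin Hsp10, starts divergently 812 bp away, and the summit lies 195 bp before its start. The region thus sits between the genes of both parts of the mitochondrial chaperonin, and these lists do not tell to which of them it belongs. Inside hsp-60, the pooled list had summits at 2361 bp in an intron (signal 67.9, rank 1642) and at 619 bp in a coding exon (signal 45.9, rank 8294). The intron summit had a partner at 2357 bp in replicate 2 (rank 1000). The closest one in replicate 1 was at 2023 bp (rank 1796). Replicate 1 also had summits at -400 (rank 11079) and 4735 bp (rank 11622), and replicate 2 had one at 617 bp (rank 8876).

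The mitochondrial Hsp70 gene hsp-6 (WBGene00002010, chrV:4824124-4826760, minus strand) had a region below the final set. In the pooled list (chrV:4826948-4827427) its summit was at -428 with a signal of 82.4, a q-value of 0.118 and rank 775. Replicate 2 had it at -435 with a signal of 54.8, a q-value of 0.0974 and rank 673. Replicate 1 had it at -408 with a signal of 25.5, a q-value of 0.59 and rank 3852. The order of the replicates was the opposite of that at hsp-3. The summit lay within the noncoding RNA genes C37H5.15 and C37H5.16 and 172 bp before the divergent gene C37H5.5, whose start is 599 bp from that of hsp-6. Replicate 1 had a further summit in a coding exon at 1240 bp, at rank 10621.

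**Figure D2:**
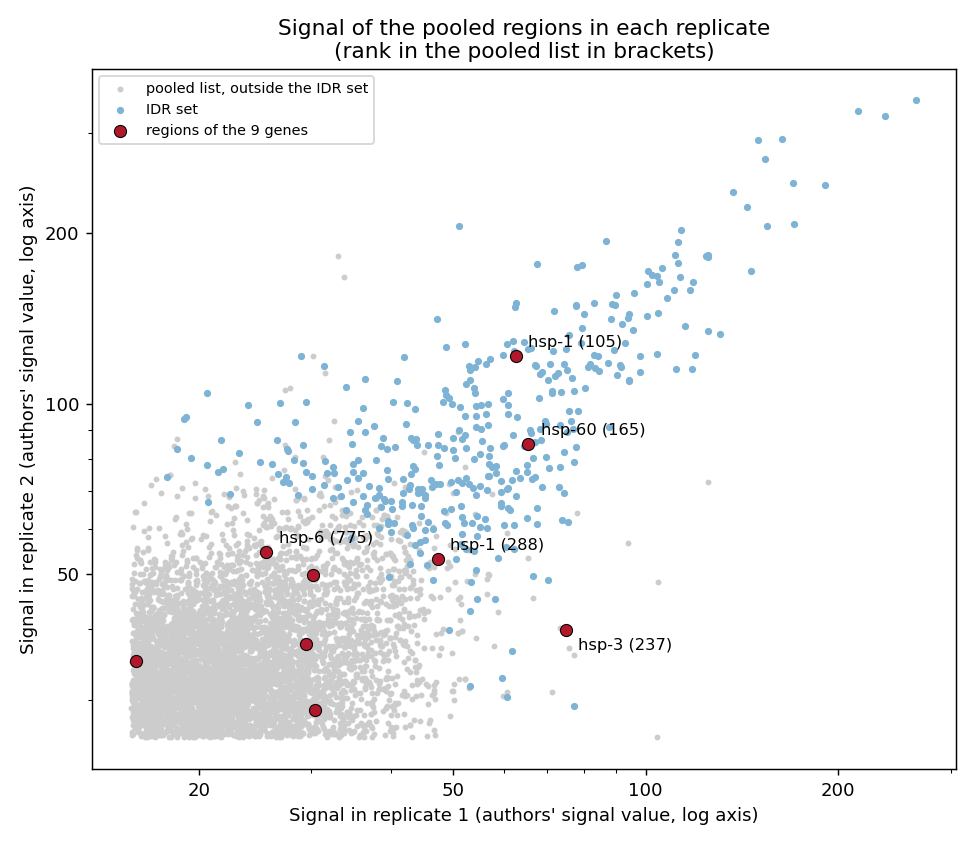
Signal value in replicate 1 (x axis) and replicate 2 (y axis), both log axes, of the pooled regions that overlap a region in both replicates. Grey points are outside the final IDR set, blue points inside it, and red points are regions of the 9 genes, with the pooled rank in brackets up to rank 1000. The hsp-1 region of rank 105 and the hsp-60 region of rank 165 lie among the blue points in both replicates, whereas the hsp-3 region is at rank 90 in replicate 1 and at rank 2768 in replicate 2.

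The small heat shock proteins hold misfolded proteins, and the hsp-16 genes among them are strongly heat-induced. hsp-16.2 (WBGene00002016, chrV:1804334-1804957, minus strand) had 1 pooled region (chrV:1804752-1805231) with its summit at -35, a signal of 51.1, a q-value of 0.832 and rank 5585. Replicate 2 had it at -24 with a signal of 40.2, a q-value of 0.549 and rank 2666. Replicate 1 listed no region there. The summit is also 186 bp before the start of hsp-16.41, the divergent gene 220 bp away.

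hsp-16.1 (WBGene00002015, chrV:9087293-9087782, minus strand) had no region in any list by this rule. With 2000 bp upstream in place of 1000 bp it gained a region in the pooled list and in replicate 2. It is 1 of a pair of inverted copies. All 262 compared promoter bases matched those of its copy hsp-16.11, and 97.2% of the 36-base words of its interval occurred elsewhere in the genome. Reads from such sequence cannot be placed on 1 copy, and the sources used here do not say how the authors treated them. The part of this repetition in the missing region was not tested.

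The regulator hsf-1 (WBGene00002004, chrI:11953507-11963085, minus strand) had no region at its start. The pooled list had 1 summit in a coding exon at 4824 bp, with a signal of 47.4, a q-value of 0.908 and rank 7420. Replicate 2 had a summit at 4713 bp (rank 5709) and one at -914 (rank 9801). Replicate 1 had summits at 7346 bp (rank 5630) and 387 bp (rank 8676), and neither overlapped the pooled region. RefSeq starts hsf-1 1101 bp farther downstream, and no summit lay within 500 bp before that start.

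The members' promoters were then compared with the motifs. From 250 bases before to 50 after the start, GAANNTTC was present in 5 of 9 promoters, beside 18.5% of all protein-coding promoters. TTCNNGAA was present in 5 of 9 beside 18.9%. A stricter form with 3 alternating units, which was added after the data had been seen, was present in 4 of 9 beside 1.97%. Those 4 were hsp-1, hsp-70, hsp-16.1 and hsp-16.2. TGACGTG was present in 2 of 9 beside 2.93%. TATAAA was present in 5 of 9 beside 37.9%, and GAGAG in 4 of 9 beside 39.9%.

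Possession of 3 alternating units in this promoter window and of a region in the final set did not coincide across the 9 genes. Of the 4 genes with 3 alternating units in the promoter, hsp-1 had regions in the final set, hsp-16.2 had a weak pooled region, and hsp-70 and hsp-16.1 had none. The absence at hsp-16.1 is uncertain, since its reads cannot be placed on 1 copy. At hsp-1 the weaker region had its pooled summit 5.0 bp from the centre of the 3 units, the GAATTTTCTAGAA printed in capitals above. The replicate summits of this region lay on either side of the 3 units, at -56 in replicate 1 and -191 in replicate 2. This distance therefore holds for the pooled summit alone. The stronger pooled hsp-1 summit had no such element within 150 bp. It had only the single pair GAACATTC 22.5 bp away, and a GAGAG match, written ctctc on the printed strand, at the summit itself. The replicate 1 summit of this region, at -258, lay nearer to the 3 units and farther from GAACATTC. The pooled hsp-60 summit lay 73.0 bp from 3 units, the hsp-6 summit 127.0 bp and the hsp-16.2 summit 29.0 bp. The units at hsp-60 and hsp-6 lie upstream of the promoter window, so these genes are not among the 4.

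In 300 bases around the summits, 3 alternating units were found in 13 of 394 regions of the final set (3.30%) and in 1.88% of the 9660 pooled regions. Of these 13 regions, 3 belonged to the chaperone genes considered here, at hsp-1, at hsp-60 with Y22D7AL.10, and at F44E5.4 with F44E5.5. Only 9 regions of the final set lay in the intervals of the chaperone and stress genes listed below. The single pairs were no more frequent in the final set than in the pooled list. GAANNTTC was found in 64 of its 394 regions and in 20.5% of the pooled list, and TTCNNGAA in 57 of 394 and in 18.4%. GAGAG was found in 58.1% of the final set and 39.6% of the pooled list, TATAAA in 25.1% and 24.3%, and TGACGTG in 2.03% and 2.27%. These shares describe the lists and were not tested.

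**Figure D3:**
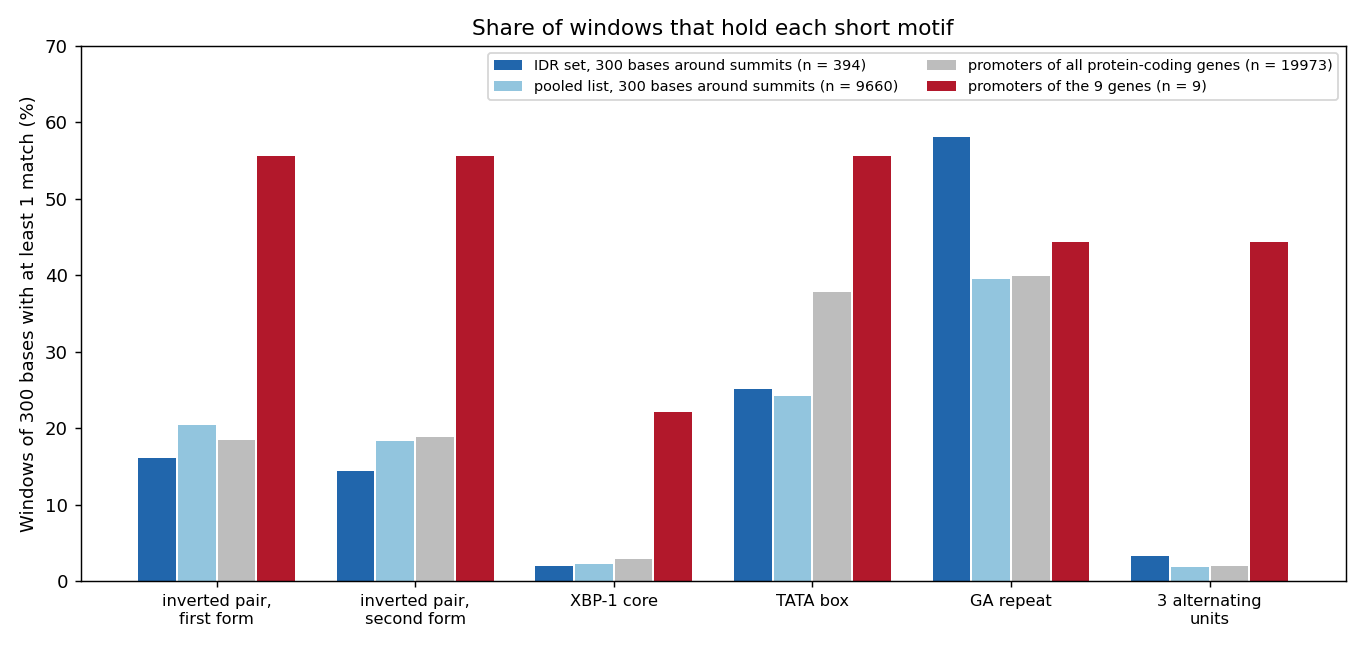
Share of 300-base windows with at least 1 match to each motif, in percent, for 394 regions of the final IDR set, 9660 pooled regions, 19973 protein-coding promoters and the promoters of the 9 genes. The pairs are GAANNTTC and TTCNNGAA, the XBP-1 core is TGACGTG, the TATA box TATAAA and the GA repeat GAGAG. The red bars stand on 9 promoters only, and 3 alternating units occur in 4 of them against 1.97% of all promoters.

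To place the members among related genes, 76 chaperone and stress genes in 9 functional lists, members included, were read in the same way. In the final set 9 of the 76 had a region, and without the members it was 6 of 67 (8.96%), beside 1.90% of all protein-coding genes. In the pooled list the numbers were 42 of 76 and 36 of 67, beside 28.8%. The counts without the members are not independent of them. In both lists they include Y22D7AL.10, through the region upstream of the member hsp-60. They also count F44E5.4 and F44E5.5 separately, although these genes share a region. In the pooled list they include hsp-16.41 too, through the region of the member hsp-16.2. The lists were put together with earlier results of these data known, so the shares are a description. The counts of single lists given below stand beside the same 1.90% for the final set and 28.8% for the pooled list.

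Cytosolic Hsp70, Hsp110 and Hsp90 genes had 4 of 7 in the final set, the highest share of the 9 lists, beside 1.90% of all protein-coding genes. Besides hsp-1, these were F44E5.4 and F44E5.5, a divergent pair of near-identical Hsp70 genes, and hsp-90. The shared region of the pair (chrII:11759221-11759700) had a signal of 133 and rank 206, with its summit 150 bp before F44E5.4 and 201 bp before F44E5.5. Replicate 1 had it at rank 416 and replicate 2 at rank 182, with summits within 1 bp of the pooled one. The 300 bases around it held 10 matches to 3 alternating units, most of them overlapping. The printed F44E5.5 stretch covers most but not all of this window, and the matches within it lie in the long capital runs. Since 2847 of the 3165 words of 36 bases in the F44E5.5 interval occur elsewhere, reads can be exchanged between the copies.

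The Hsp90 gene hsp-90, whose product matures signalling proteins, had summits at 1070 bp (signal 146, rank 164) and 1269 bp (signal 108, rank 326) in the Ensembl model. RefSeq starts this gene 1242 bp farther downstream, which puts the same summits at -172 and 27 bp. The first was ranked 210 by replicate 1 and 151 by replicate 2. The second was ranked 7569 by replicate 1 and 250 by replicate 2. hsp-110, the nucleotide exchange factor of Hsp70, was just outside the final set, with a summit at -185, a signal of 101 and rank 399. It was at rank 2440 in replicate 1 and at rank 311 in replicate 2. The pooled summit lay within the noncoding RNA gene C30C11.14, 1 bp from its start, and 259 bp from the start of the divergent gene rpn-3.

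None of the 16 small heat shock protein genes had a region in the final set, beside 1.90% of all protein-coding genes. In the pooled list 4 of 16 (25%) had one, beside 28.8%. Their intervals had a median of 1813 bp, against 3027 bp for all protein-coding genes. Nothing is read from this absence. The strongest pooled region among these genes was the one assigned to hsp-16.11, at -987 and rank 4059. The gene hsp-16.49 lies between this summit and the start of hsp-16.11. The nearest start was that of hsp-16.48, 676 bp away, and the summit lay beyond the end of that gene. The same summit lies within the 2000 bp upstream of hsp-16.1. Of 12 chaperones and folding enzymes of the endoplasmic reticulum, hsp-3 alone was in the final set and 8 were in the pooled list. The protein disulfide isomerase gene pdi-3 followed at rank 658, with its summit at -500 within the noncoding RNA gene VF15C11L.2. Of 4 regulators of endoplasmic reticulum stress none was in the final set. The strongest was xbp-1, at 64 bp in its 5′ UTR, with a signal of 89.5 and rank 580.

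Of 8 mitochondrial chaperones and proteases, hsp-60 and Y22D7AL.10 were in the final set through their shared region, and 5 were in the pooled list. Of 4 regulators of mitochondrial stress none was in the final set. ubl-5, the ubiquitin-like regulator, was the strongest at -258 and rank 1308. Of 8 subunits of the cytosolic chaperonin CCT none was in the final set and 6 were in the pooled list. cct-6 was closest to the edge, at rank 405 with a signal of 101 and a summit at -315, but the summit was only 16 bp before the start of alh-9.

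Of 12 cytosolic co-chaperones, the J-domain genes dnj-13 and dnj-19 were in the final set. The dnj-13 summit lay at -70 within an intron of dhgd-1, at rank 297, and 18 bp from the nearer start of the noncoding RNA F54D5.22. The closest summit of replicate 1 was ranked 280. Replicate 2 had a summit on each side of the pooled one, at -195 (rank 300) and at 8 bp (rank 2748). The dnj-19 summit lay at -411, at rank 353, and was 15 bp inside nhr-47 in its 5′ UTR. The noncoding RNA gene C24G6.10 starts 7 bp from the dnj-19 summit. Among hsf-1 and 4 of its relatives and regulators none was in the final set. One of these genes, hsf-2, is annotated as a pseudogene. ddl-2, whose product joins an inhibitory complex with HSF-1, had the strongest region, at -78 and rank 5829.

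**Figure D4:**
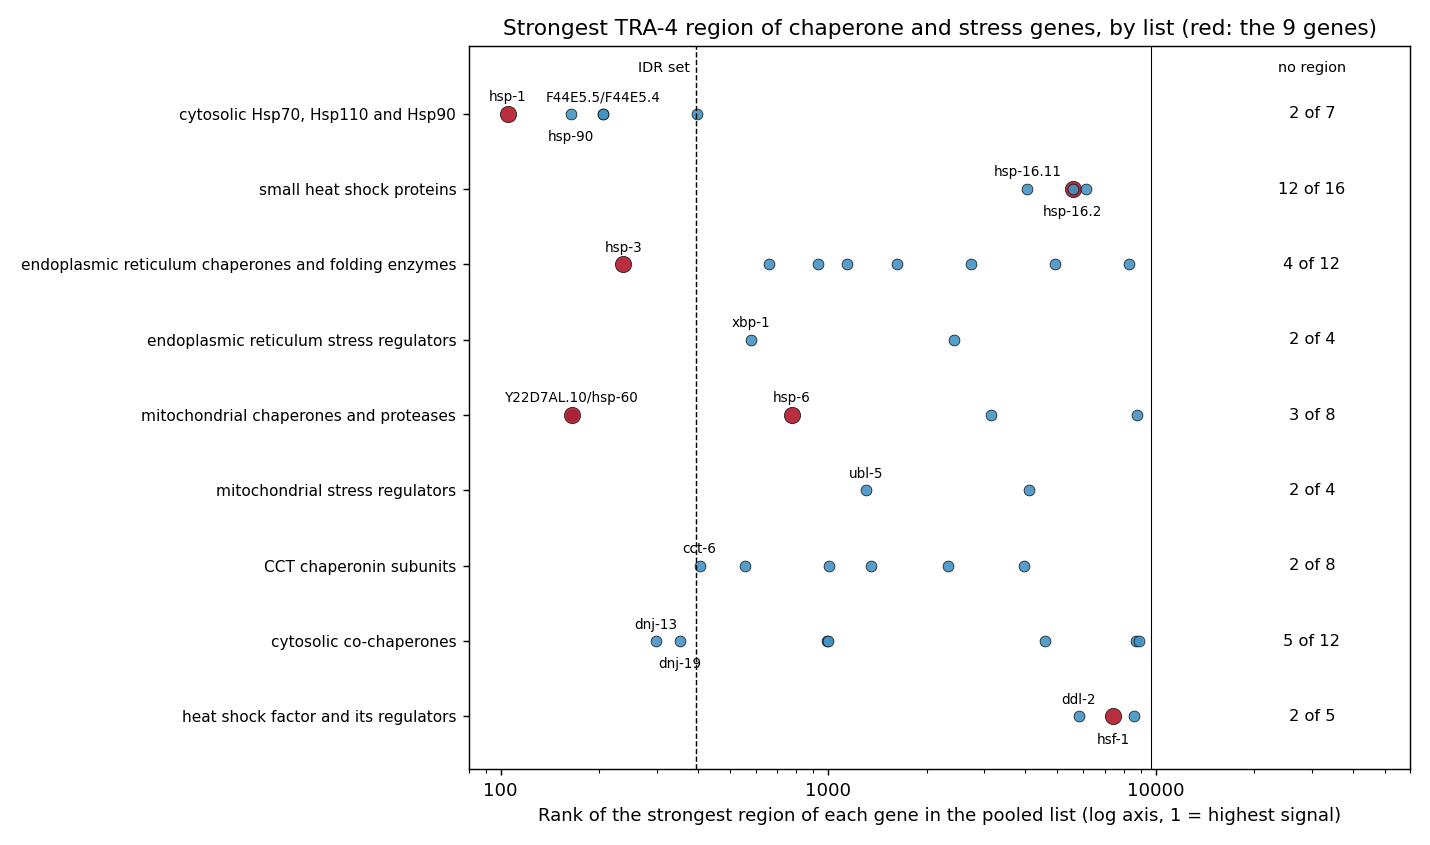
Rank of the strongest pooled region of each of the 76 chaperone and stress genes (x axis, log), by functional list. Red points are the 9 genes, blue points the other genes, the dashed line is the edge of the final IDR set at rank 394, and the numbers on the right count the genes with no pooled region. The cytosolic Hsp70, Hsp110 and Hsp90 genes with a pooled region all lie at or left of rank 399, whereas the small heat shock protein genes start at rank 4059.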

How the data were processed

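TRA-4 ChIP-seq was analysed from 4 deposited ce11 peak lists: the final IDR set, the pooled relaxed list and the relaxed list of each of 2 biological replicates. Each region carries, in the deposited narrowPeak format, a signal value from the authors' caller, the −log10 of a q-value and a summit offset. Per the labels and descriptions of the lists, which have no header, the relaxed lists were input to the IDR step. The sources used here name no aligner, peak caller or IDR cutoff and give no read counts, so the depth is unknown and no counting error can be set on a signal. The control and the ce10 lists were not analysed here.

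Regions were ranked by signal within a list. Gene starts and ends came from Ensembl release 115, with RefSeq as an alternative, and all 76 symbols matched. RefSeq gives hsp-16.1 and hsp-16.11 separate names where Ensembl uses 1 name for both. A gene was given every region whose summit lay from 1000 bp before its start to its end. A replicate region was paired with the pooled region it overlapped by at least 1 bp, taking the nearest summit. Motifs were searched on both strands. The sequence upstream of hsp-3 and its motif matches are not reported here. Python 3.11.15, pandas 2.3.3, numpy 2.4.6 and matplotlib 3.10.9 were used, and the assignment of summits was checked on simulated data.

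The members and lists were chosen with earlier results of these data known, and no test was run. The genes named are the 9 members, every listed gene in the final set and otherwise the strongest of each list, and genes starting within 500 bp of their regions. Not every gene starting within 500 bp is named. hsp-110 and pdi-3 were named after their values were seen. Alternatives were the distance, the overlap in place of the summit, the RefSeq models, stricter subsets and each replicate alone. Assignment by the nearest start, the motif of 3 units and the repeated 36-base words were added after the data were seen.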

Additional observations from a re-analysis of the deposited data

How the results depend on the processing

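Of 34 alternative counts of members with a region, 28 were within 1.5 times the reported count. This bound is wide for small counts: 2 genes in place of 3 fall within it, so the loss of 1 gene from the final set does not show. For the final set, where 3 of 9 genes had a region, the counts from the strongest regions of 1 replicate alone ranged from 2 to 3. hsp-1 was counted under every alternative run for that set. hsp-3 was missing from the stronger part of the set and from the top of replicate 2. hsp-60 was missing when the upstream distance was 500 bp, within 500 bp of the start and when only the nearest protein-coding start was taken. With a q-value below 0.05 the pooled count went from 6 to 3, replicate 1 from 5 to 3 and replicate 2 from 7 to 2. With the 1000 strongest regions, replicate 1 and replicate 2 each had 3, and with summits within 500 bp of the start replicate 2 had 4. With 2000 bp upstream hsp-16.1 gained a region, so the pooled count was 7 and that of replicate 2 was 8. The rank of the hsp-3 region went from 237 to 90 in replicate 1 alone and to 2768 in replicate 2 alone, and that of hsp-1 from 105 to 144 and 77. No paired analysis was possible because there is 1 group and no test. The depth is unknown, so a gene without a listed region cannot be called unbound.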

Other observations

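Of the 13 regions of the final set with 3 alternating units, 3 lay in intervals of the listed chaperone and stress genes. Those intervals held only 9 of the 394 regions of the final set, so most regions of any kind lay outside them. Of the 13, the strongest had the protein-coding start of F58G1.7 nearest, 3488 bp away, at rank 46, and others were at R148.3 (-162, rank 104), tmem-107 (-54, rank 130) and ddp-1 (-174, rank 205). One at rank 328 had its nearest start at cct-7, 3576 bp away and beyond the end of that gene. These genes were chosen after their values were seen.

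The pooled region of hsp-12.3, a small heat shock protein gene, overlapped a region of replicate 1 alone. This pooled region was at rank 6120 with its summit in the 3′ UTR. The replicate 1 region was at rank 324, with its summit outside the interval of the gene, and no region of replicate 2 overlapped. The noncoding RNA gene F38E11.24 starts 26 bp from the pooled summit and the small nuclear RNA gene F38E11.11 150 bp from it. The part of either gene in the signal was not tested.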
